A study of Canis lupus familiaris with 48 samples.

Results

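ENSCAFG00000003461 and ENSCAFG00000032326 are 2 of the 32704 genes in a table of RNA sequencing read counts from MDCK I cells, an established line of dog kidney epithelium. They were chosen by identifier because earlier results of these data had shown both to be raised by urea and lowered by salt. Their differences from control, and those of NaCl and raffinose from urea and from each other, are therefore given here as a description, with no test. The annotation used for counting, Ensembl release 87 on the dog build CanFam3.1, gives identifiers and positions but no names. The table of dog gene names at hand belongs to a different assembly and holds 0 Ensembl identifiers, so neither gene is named, no known function is given and no sequence is shown.

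The series compared 4 groups of 12 libraries. Control cells stayed in their regular medium of 300 mOsm, and the other groups spent the final 24 h of a 144 h culture in medium brought to 500 mOsm by 200 mOsm of NaCl, of raffinose (a sugar) or of urea. All libraries came from 1 cell line on uncoated plates and were made from polyadenylated RNA. Each group held 1 library at each of 12 cell passages, numbered from 1 to 19 with gaps. The labels do not say whether libraries of a passage came from separate cultures, so every p-value here measures the spread between these libraries. Since the identifiers have no symbols, marker genes of kidney epithelium or of other cell types were not tested. In bulk RNA, fewer cells with a transcript and less transcript per cell cannot be told apart.

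Cells of the inner kidney are bathed in fluid rich in both NaCl and urea, and MDCK cells are a common model for how such cells bear it. NaCl and raffinose stay largely outside the cell, draw water out of it and make it shrink, which calls up the transcription factor TonEBP and the genes that gather compatible osmolytes. Urea crosses membranes, raises osmolality with little lasting loss of cell water and instead stresses proteins and DNA.

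Library totals ran from 3915449 to 16164615 counted reads. Levels are counts-per-million (CPM) values scaled by edgeR's TMM factors, and fold changes come from edgeR's quasi-likelihood fit over all 48 libraries and 12654 tested genes. Both genes were among the tested genes. The adjusted p is by Benjamini-Hochberg over all tested genes, with a threshold of 0.05. A given interval is the fold change ± 1.96 SE.

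ENSCAFG00000003461 lies on the plus strand of chromosome 10, from 69288237 to 69293771. Its 19 exon records merge into 8 blocks with 1465 exon bases in all, and the last block, from 69293061 to 69293771, holds 48.5% of them. No other annotated gene overlaps its span. ENSCAFG00000032326 lies on the plus strand of chromosome 7, from 43480708 to 43482461. It has 2 exons of 148 and 820 bases, separated by an intron of 786 bases, and the longer exon holds 84.7% of the 968 exon bases. Its span lies inside that of a longer gene on the same strand, ENSCAFG00000017552, with 0 exon bases in common, so exon reads of the pair were not split by the annotation. Neither gene's exons thus share a base with another annotated gene. The level of ENSCAFG00000017552 is not given here, and whether its intron reads count toward ENSCAFG00000032326 was not tested.

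ENSCAFG00000003461 was a weakly expressed gene in every group but urea. In control its lowest, median and highest levels were 0.627, 2.19 and 7.47 CPM. In NaCl they were 0.194, 0.737 and 1.39 CPM. After raffinose they were 0.192, 1.06 and 2.57 CPM. After urea they were 14.9, 23.7 and 61.4 CPM. All 12 urea libraries lay above all 36 others, and the lowest urea library was 1.99 times the highest control library. Such levels chose the gene, and the share of all tested genes that separate as fully was not counted. Control and NaCl overlapped, although 11 of 12 control libraries were above the highest NaCl library. Control and raffinose overlapped more, with 5 control libraries above the highest raffinose library.

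In means, ENSCAFG00000003461 stood at 2.88 ± 1.86 CPM in control, 0.745 ± 0.359 after NaCl, 1.05 ± 0.714 with raffinose and 28.3 ± 13.7 after urea (SD, n = 12 each). The fitted change after urea was 10.0-fold upward, a log2 fold change of 3.32 ± 0.26 (SE, interval 2.81 to 3.84). After NaCl it was 3.78-fold lower, -1.92 ± 0.35 (interval -2.60 to -1.24). After raffinose it was 2.82-fold lower, -1.50 ± 0.34 (interval -2.16 to -0.83). These 3 comparisons share the control libraries. All 12 same-passage pairs were higher after urea than in control, and all 12 were lower after NaCl and with raffinose. Such values chose the gene, and the share of all tested genes with 12 pairs in 1 direction was not counted.

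ENSCAFG00000032326 was a well expressed gene in control and more so after urea. In control its lowest, median and highest levels were 62.6, 115 and 244 CPM. After NaCl they were 8.00, 14.5 and 21.5 CPM. After raffinose they were 6.21, 10.9 and 17.995 CPM. After urea they were 89.6, 325 and 595 CPM. Every control library lay above every NaCl and every raffinose library, and the lowest control library was 2.91 times the highest NaCl library. This separation too was not set against that of all tested genes. Control and urea overlapped through 1 urea library, that of passage 17 with 89.6 CPM; the other 11 were above the highest control library.

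In means, ENSCAFG00000032326 stood at 128 ± 55.6 CPM in control, 14.9 ± 4.33 after NaCl, 11.5 ± 3.55 with raffinose and 356 ± 145 after urea (SD, n = 12 each). The fitted change after urea was 2.78-fold upward, a log2 fold change of 1.47 ± 0.20 (SE, interval 1.08 to 1.87). After NaCl it was 8.59-fold lower, -3.10 ± 0.22 (interval -3.54 to -2.66). After raffinose it was 11.2-fold lower, -3.48 ± 0.23 (interval -3.93 to -3.03). As for the other gene, all 12 same-passage pairs were higher after urea and all 12 were lower after each impermeant solute. Here too such values chose the gene, and the share of all tested genes was not counted.

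**Figure D1:**
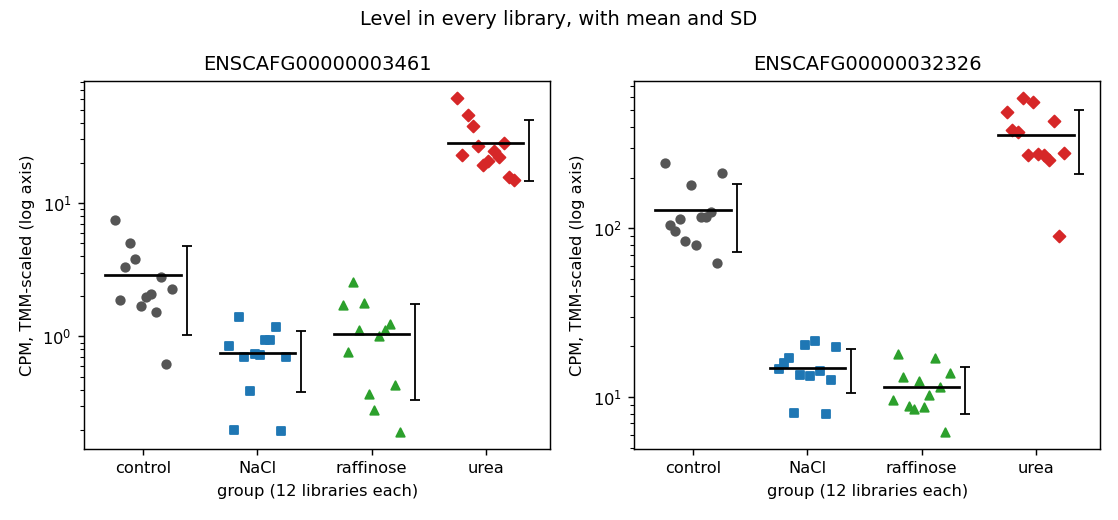
Level of each gene in every library, in CPM on a log axis, by group; points are the 12 libraries of a group in order of passage, lines the mean and bars the SD. The urea libraries of ENSCAFG00000003461 start at 14.9 CPM, above all others, and the NaCl and raffinose libraries of ENSCAFG00000032326 end at 21.5 CPM, below all others.

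The 2 genes differed in where the distance between urea and the impermeant solutes arose. The log2 fold change of NaCl against urea was -5.24 ± 0.31 for ENSCAFG00000003461 and -4.58 ± 0.24 for ENSCAFG00000032326. For raffinose against urea the values were -4.82 ± 0.31 and -4.95 ± 0.24. ENSCAFG00000003461 covered most of that distance by its rise above control after urea, and ENSCAFG00000032326 by its fall below control after NaCl and raffinose. In control the former had only 9 to 81 reads a library, against 553 to 3825 for the latter. A fall could thus be measured over a smaller range in the former, and how far this shapes the contrast was not tested. Among all 12654 tested genes, ENSCAFG00000003461 had the 4th highest rise after urea and ENSCAFG00000032326 the 113th. By the excess of urea over NaCl they ranked 5th and 6th, and by that of urea over raffinose 5th and 4th. High ranks follow from the choice of the genes, so nothing is read from them.

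Of the tested genes, 52.3% were called after urea, 70.7% after NaCl and 74.9% with raffinose, in either direction. The calls split into 3463 up and 3157 down after urea, 4375 and 4574 after NaCl, and 4648 and 4834 with raffinose. Scaled by library totals alone, the splits were 2593 and 3869, 3197 and 6081, and 3284 and 6550. The pattern of a rise after urea with a fall after both other solutes was met by 849 genes (6.71%), with median log2 fold changes of 0.38 after urea, -0.53 after NaCl and -0.64 with raffinose. Both genes are among them by their choice, so nothing is read from that count or from the ranks that follow. Within it, ENSCAFG00000003461 had the highest rise after urea and the 26th deepest fall after NaCl, while ENSCAFG00000032326 had the 13th highest rise, the 3rd deepest fall after NaCl and the 2nd deepest with raffinose. Only 27 of the 849 moved by 2-fold or more in all 3 comparisons.

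Read counts set how finely each level is known. ENSCAFG00000003461 had 98 reads over the 12 NaCl libraries (exact Poisson 95% interval 79.6 to 119) and 112 over the 12 raffinose libraries (92.2 to 135), with 2 to 16 and 2 to 22 reads in a library. Over the 12 control libraries it had 384 reads, and over the 12 urea libraries 3694. ENSCAFG00000032326 had between 53 reads, in a raffinose library, and 6504 reads, in a urea library. Such intervals cover counting error only, not the spread between libraries, and the reads carry no molecular identifiers.

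The spread between libraries was wide for both genes. The coefficient of variation of ENSCAFG00000003461 was 64.6% in control, 48.2% after NaCl, 68.0% with raffinose and 48.3% after urea, while counting alone gives 17.7%, 34.99%, 32.7% and 5.70% at the mean count of each group. For ENSCAFG00000032326 it was 43.3%, 28.98%, 30.8% and 40.6% in the same order, against 2.56%, 7.78%, 9.57% and 1.62% from counting. The biological coefficient of variation fitted by edgeR was 46.8% for ENSCAFG00000003461, above that of 98.5% of tested genes, and 34.8% for ENSCAFG00000032326, above 94.9%, with a median of 15.3% over all tested genes. Group took up 89.9% and 93.5% of the variance of log2(CPM + 0.5) of the 2 genes, and passage 7.02% and 3.12%. A large group share follows from the choice of the genes, so nothing is read from it.

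Per length, the 2 genes differed in level throughout. CPM per kilobase of exon (RPKM) of ENSCAFG00000003461 averaged 1.965 in control, 0.509 after NaCl, 0.717 with raffinose and 19.3 after urea, with 15.1%, 4.17%, 5.98% and 62.4% of tested genes below it. Those of ENSCAFG00000032326 averaged 132, 15.4, 11.9 and 368 in the same order, with 96.7%, 56.0%, 49.1% and 99.2% of tested genes below it. After urea it was the 104th highest of the 12654 tested genes per length. The ratio of the mean RPKM of ENSCAFG00000032326 to that of ENSCAFG00000003461 was 67.4 in control, 30.4 after NaCl, 16.6 with raffinose and 19.0 after urea.

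NaCl and raffinose were also set directly against each other at the same osmolality, a comparison called for 15.4% of tested genes. Low levels in the NaCl libraries were among the values that chose the 2 genes. This comparison too is therefore given for them as a description, with no test. ENSCAFG00000003461 had too few reads in these 2 groups alone to be kept in a fit of them, and entered through the other groups. For ENSCAFG00000003461 the log2 fold change of NaCl against raffinose was -0.42 ± 0.41 (SE, interval -1.23 to 0.39), lower after NaCl in 9 of 12 same-passage pairs. For ENSCAFG00000032326 it was 0.38 ± 0.23 (interval -0.07 to 0.83), higher after NaCl in 8 of 12 pairs. The intervals, from a fit that ignores the pairing by passage, reach as far as -1.23 in the one gene and 0.83 in the other. Neither gene is thus shown to respond alike to the 2 solutes. With passage as a replicate block the values were -0.45 ± 0.26 and 0.40 ± 0.19 (SE). The number of genes called over the whole table then rose from 1948 to 3595.

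The estimates of the 2 genes had opposite signs in that comparison, and the ratio between them is given as a description, since its NaCl values were also among those that chose the genes. The log2 ratio of ENSCAFG00000032326 to ENSCAFG00000003461, with 0.5 CPM added to each, was 3.64 ± 0.63 after NaCl and 3.04 ± 0.78 with raffinose (SD, n = 12). The mean same-passage difference was 0.60 ± 0.78 (SD), positive in 8 of 12 passages and between -0.45 and 1.98. The denominator rests on 2 to 22 reads a library. The order of levels, from high to low, was therefore urea, control, then NaCl and raffinose, whose mutual order was not settled for either gene.

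**Figure D2:**
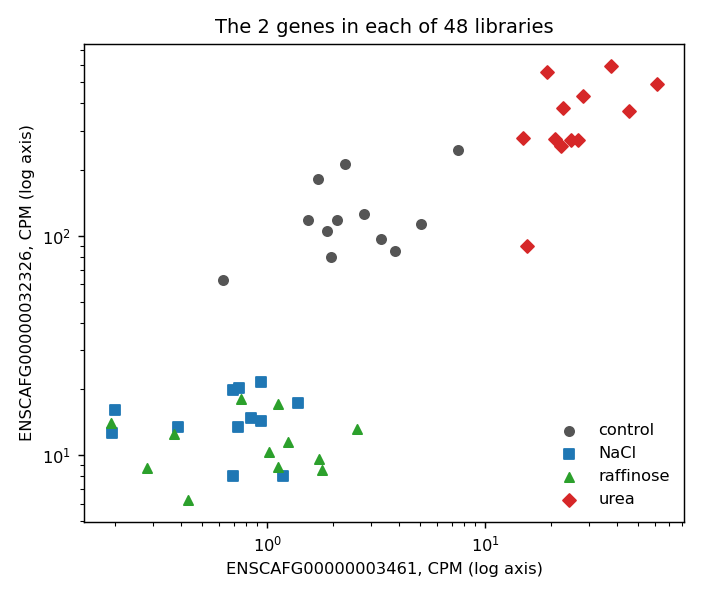
Level of ENSCAFG00000032326 against that of ENSCAFG00000003461 in each of the 48 libraries, in CPM on log axes, with 1 symbol per group. The urea libraries form the upper right cluster and the control libraries lie to its left, while the NaCl and raffinose libraries share the lower left.

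Within a group the 2 genes were not shown to vary together. Over the 12 libraries of a group, Pearson's r of their log2(CPM + 0.5) was 0.47 in control (permutation p = 0.119, adjusted over the 4 groups 0.237) and 0.56 after urea (permutation p = 0.059, adjusted 0.236). It was -0.00045 after NaCl (permutation p = 0.999) and 0.049 with raffinose (permutation p = 0.881), with an adjusted p of 0.999 for both. In those 2 groups ENSCAFG00000003461 had only 2 to 16 and 2 to 22 reads a library. A low r there thus does not show that the genes vary apart. Spearman's rho was 0.29, 0.43, 0.20 and -0.10 in control, urea, NaCl and raffinose (permutation p = 0.365, 0.162, 0.526 and 0.748; adjusted 0.701, 0.647, 0.701 and 0.748). Without the 2 libraries farthest from the median of ENSCAFG00000003461, r was -0.29 in control, 0.60 after urea, -0.014 after NaCl and 0.090 with raffinose. The control value rested on passages 1 and 17, the highest and lowest libraries of both genes in that group.

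Passage had not been used to choose the genes. In the fit over libraries, which counts the 4 libraries of a passage as separate, ENSCAFG00000003461 was lower at later passages. With a linear term for passage, its level fell by 0.84 ± 0.15 log2 units per 10 passages (SE, edgeR adjusted p = 0.000133), a term called for 16.2% of tested genes. Per group the slope was -0.999 ± 0.279 in control, -0.05 ± 0.44 after NaCl, -1.03 ± 0.43 with raffinose and -0.88 ± 0.22 after urea. Its level was highest at passage 1 in control (7.47 CPM) and after urea (61.4 CPM), and at passage 5 after NaCl (1.39 CPM) and raffinose (2.57 CPM). The lowest libraries were those of passage 17 in control and after NaCl, and of passage 19 with raffinose and urea.

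This trend depended on how the 4 libraries of a passage were counted and on the outer passages. When each passage's 4 libraries were added into 1, the slope was -0.88 ± 0.24 and was not called (edgeR adjusted p = 0.182). Reads were added there without regard to group, 3694 from urea, 384 from control, 98 from NaCl and 112 from raffinose libraries. That slope thus mostly follows the urea libraries. The 12 passage means, after group means were removed, gave r = -0.64 with passage (permutation p = 0.0276, adjusted over the 2 genes 0.0553) and rho = -0.60 (permutation p = 0.0438, adjusted 0.0877). Without passages 1 and 19 that r was -0.43, so the relation rests in part on them. In the fit over libraries, the slope was -0.64 without passage 1 (edgeR adjusted p = 0.0218), -0.64 without passages 1 and 19 (adjusted p = 0.0574) and -0.42 without passages 1 and 5 (adjusted p = 0.273).

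ENSCAFG00000032326 had no called trend with passage. Its slope was -0.20 ± 0.13 (edgeR adjusted p = 0.318), and the size of this value depended on single passages. It was -0.094 without passage 1 (edgeR adjusted p = 0.773), -0.063 without passage 17 (adjusted p = 0.773) and -0.42 without passage 19 (adjusted p = 0.0538). The passage means gave r = -0.34 (permutation p = 0.291) and rho = -0.31 (permutation p = 0.32). By group the slope ran from 0.03 ± 0.29 after NaCl to -0.59 ± 0.26 after urea. Passage 17 was its lowest library in control, with raffinose and after urea, and the mean deviation from the group means there was -0.93 log2 units. For ENSCAFG00000003461 the mean deviation was also lowest at passage 17, at -0.88. Both genes were below their group mean in all 4 groups at that passage.

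The differences between groups were not shown to change with passage. The joint test of the solute by passage terms gave an adjusted p of 1.00 for both genes (edgeR, unadjusted p = 0.322 and 0.378). It called 0.0% of the 12654 tested genes, with 442 at an unadjusted p under 0.05, and DESeq2 called 2. In same-passage pairs the log2 difference of urea from control ran from 2.47 at passage 19 to 3.83 at passage 17 for ENSCAFG00000003461, and from 0.39 at passage 19 to 2.39 at passage 7 for ENSCAFG00000032326. At passage 19 ENSCAFG00000032326 had 213 CPM in control and 279 after urea.

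**Figure D3:**
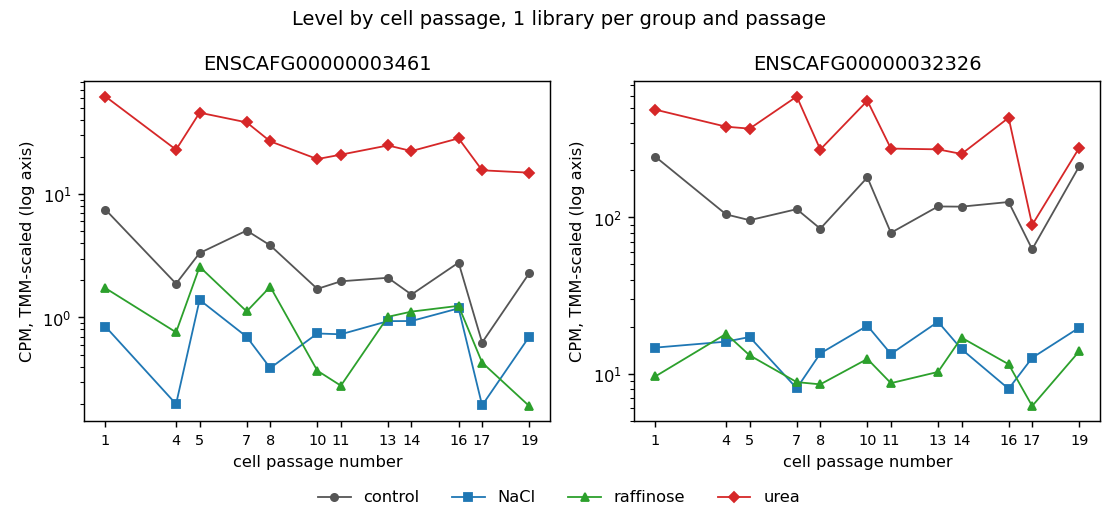
Level of each gene against cell passage number, in CPM on a log axis, with 1 line per group and 1 library per point. ENSCAFG00000003461 goes from 61.4 CPM at passage 1 to 14.9 CPM at passage 19 after urea, and the control libraries of both genes are lowest at passage 17.

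The surroundings of the 2 genes were described next, from the 5 annotated genes on either side. For ENSCAFG00000003461 only 2 annotated genes follow on the chromosome, and 3 of its 7 neighbours had enough reads to be tested. All 3 rose after urea, 1 rose and 1 fell after NaCl, and 0 rose and 2 fell with raffinose, beside the background of 52.3%, 70.7% and 74.9% called in either direction. With so few genes these shares are no result about the region, and with library totals alone 0 of the 3 rose after NaCl. The tested neighbour after it, ENSCAFG00000003468 on the minus strand, lies 3.19 kb beyond its end. It rose after urea (0.48 ± 0.08, edgeR adjusted p = 6.42e-07) and after NaCl (0.24 ± 0.08, adjusted p = 0.0052), with 0.13 ± 0.08 with raffinose (adjusted p = 0.125).

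The nearest gene before it, ENSCAFG00000003442, had the same directions at a smaller size. It spans 69265895 to 69287765 on the same strand in 17 exon blocks and ends 471 bases before ENSCAFG00000003461 begins. Its level was 131 ± 33.8 CPM in control, 61.4 ± 9.91 after NaCl, 51.2 ± 9.64 with raffinose and 175 ± 42.5 after urea (SD, n = 12). It rose 1.34-fold after urea (0.43 ± 0.12, edgeR adjusted p = 0.00214), and fell 2.12-fold with NaCl (adjusted p = 2.21e-11) and 2.55-fold with raffinose (adjusted p = 2.11e-14). Beside these stand the folds of ENSCAFG00000003461, 10.0 upward after urea and 3.78 and 2.82 downward after NaCl and raffinose; the differences between the 2 genes' folds were not tested. It also had a called slope on passage, -0.35 ± 0.06 log2 units per 10 passages (edgeR adjusted p = 0.000103). That fit counted the 4 libraries of a passage as separate. With the 4 libraries summed, only 8 genes of the whole table were called for passage, and the value of this gene there is not given here.

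These 2 adjoining genes also varied together from library to library inside the groups, least closely after NaCl. With group means removed, ENSCAFG00000003442 had the highest correlation with ENSCAFG00000003461 of 12188 other genes with a mean of at least 1 CPM (r = 0.81 over 48 libraries). Taken group by group, r was 0.91 in control, 0.48 after NaCl, 0.87 with raffinose and 0.91 after urea, with 12 libraries each. The tested neighbour on the other side, ENSCAFG00000003468, had r = -0.56 by the same measure. These are descriptions: the points share libraries and passages, and how far reads run on from the upstream gene past its annotated end was not tested. The annotation gives the pair no exon base in common.

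**Figure D4:**
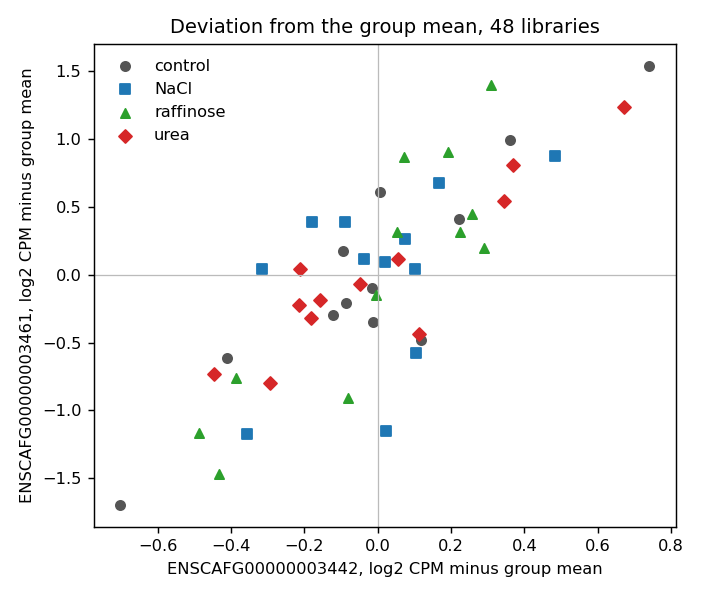
Deviation of log2 CPM from the group mean in each of 48 libraries, for ENSCAFG00000003461 (vertical) against ENSCAFG00000003442, the gene that ends 471 bases before it (horizontal). Libraries of control, raffinose and urea lie along 1 rising band (r = 0.91, 0.87 and 0.91), while those of NaCl scatter more (r = 0.48). Over all 48 libraries r was 0.81.

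Of the 10 neighbours of ENSCAFG00000032326, 8 were tested. Neighbours were taken by start position, so ENSCAFG00000017552, which overlaps the gene, is not among the 10. After urea 5 rose and 0 fell, after NaCl 1 rose and 4 fell, and with raffinose 2 rose and 5 fell. Their median log2 fold changes were 0.34, -0.34 and -0.61, against 0.02, -0.02 and -0.02 over all tested genes. The shares called, 5, 5 and 7 of 8, stand beside the same backgrounds of 52.3%, 70.7% and 74.9%.

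Among them, the nearest upstream pair of tested genes had the pattern of ENSCAFG00000032326. ENSCAFG00000017544, 34.9 kb before it on the same strand, had 71.3 ± 15.1 CPM in control, 20.1 ± 4.68 after NaCl, 19.8 ± 4.03 with raffinose and 122 ± 18.3 after urea. It rose 1.71-fold after urea (edgeR adjusted p = 4.96e-08) and fell 3.54-fold after NaCl (adjusted p = 1.26e-19) and 3.60-fold with raffinose (adjusted p = 6.68e-20). ENSCAFG00000017545, 27.9 kb before it, rose 1.52-fold after urea (adjusted p = 4.61e-06) and fell 2.13-fold after NaCl (adjusted p = 9.80e-13) and 3.19-fold with raffinose (adjusted p = 3.58e-19).

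On the other side the direction changed within a short distance. ENSCAFG00000017550 starts 11.4 kb after ENSCAFG00000032326 on the same strand. It rose 4.62-fold after NaCl (edgeR adjusted p = 3.92e-20) and 3.90-fold with raffinose (adjusted p = 2.35e-18), from 14.0 ± 4.14 CPM in control to 64.6 ± 17.1 and 54.5 ± 11.5, and rose 1.34-fold after urea (adjusted p = 0.0091). ENSCAFG00000017553, 19.9 kb after it, fell with NaCl (-0.43 ± 0.13, adjusted p = 0.00228) and with raffinose (-0.72 ± 0.13, adjusted p = 1.15e-06), with 0.02 ± 0.12 after urea (adjusted p = 0.907). The opposite responses to urea and to the impermeant solutes were thus not shared by all genes of the stretch.

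**Figure D5:**
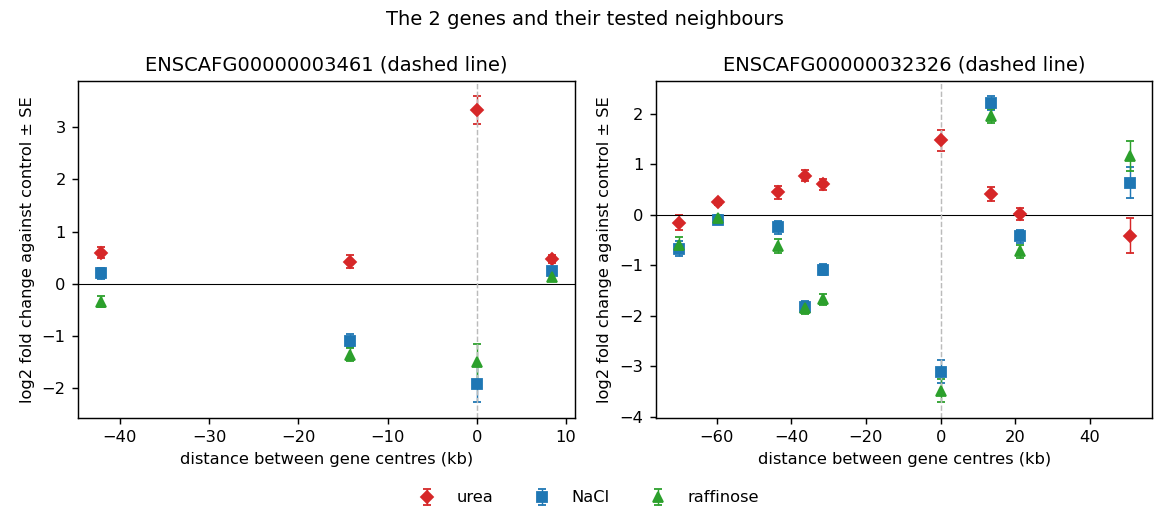
Log2 fold change against control ± SE for each gene and its tested neighbours, by distance between gene centres in kb; symbols give the solute. On the left, the gene before ENSCAFG00000003461 lies below 0 after NaCl and raffinose as it does; on the right, the pair before ENSCAFG00000032326 follows its directions and ENSCAFG00000017550 reaches 2.21 after NaCl.

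The genes most like each of the 2 over all 48 libraries were looked up by Pearson's r of log2 CPM, a measure that mostly reflects the 4 group means. For ENSCAFG00000032326 the highest of 12188 genes was its neighbour ENSCAFG00000017544 (r = 0.98), followed by ENSCAFG00000007199 (chromosome 27, 2221689 to 2229112, r = 0.98), with 3292 ± 605 CPM in control and 4811 ± 708 after urea. ENSCAFG00000017545 was 4th (r = 0.97). For ENSCAFG00000003461 the highest were ENSCAFG00000007758 (chromosome 27, 3507333 to 3538929, r = 0.96) and ENSCAFG00000018868 (chromosome 9, 43227181 to 43313378, r = 0.94). The former went from 144 ± 18.6 CPM in control to 348 ± 67.9 after urea and 92.1 ± 18.9 after NaCl. The 2 genes of this description were less like each other than like these, with r = 0.86, the 94th highest for ENSCAFG00000003461 and the 691st for ENSCAFG00000032326.

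With group means removed, likeness singled out other genes. For ENSCAFG00000003461 the upstream neighbour was followed by ENSCAFG00000020369 (chromosome 5, 82109540 to 82128124, r = 0.78), which had 2.96 ± 1.63 CPM in control and higher levels after NaCl (5.64 ± 1.82) and raffinose (5.53 ± 2.46). For ENSCAFG00000032326 the highest were ENSCAFG00000007987 (chromosome 17, 40393178 to 40429257, r = 0.76), at 99.6 ± 14.7 CPM in control and 79.9 ± 12.2 after urea, and ENSCAFG00000013900 (chromosome 6, 8705969 to 8712379, r = 0.76). Genes that follow the 2 from library to library are thus not all genes that follow them from group to group. By this measure r between the 2 genes themselves was 0.29.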

How the data were processed

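The deposited values are raw counts by gene of 48 single-read libraries. The tools named in the submitters' processing notes are CASAVA, HISAT2 (2.0.5) and featureCounts (1.5.1). Exon reads were totalled for each gene with strand ignored, per the file headers, using Ensembl release 87 for CanFam3.1, with no option for reads matching several places. Near-identical copies are thus less certain, and antisense reads count toward a gene on the opposite strand too. Columns of passage 10 carry an added number that the labels do not explain, and 0 columns of values were left unused.

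Counts were fitted with edgeR 4.0.16 in R 4.3.3 (filterByExpr, TMM, glmQLFit and glmQLFTest) over all libraries, with a term for group, or for group and passage. SE is the log2 fold change over the square root of F, and no 2 libraries of a group were within sampling noise of each other (chi-square per gene at least 5.26). Levels for correlations and ratios were log2(CPM + 0.5), and likeness used edgeR's log2 CPM with a prior count of 2. Permutation tests were two-sided with 100000 resamples. The code was tested on simulated data.

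The passage label pairs libraries across groups. After group means were removed, 66 of 72 same-passage pairs had a correlation over 0.1, with a mean of 0.31 (-0.087 to 0.70), against -0.028 for the other 792 pairs.

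The members, lists and tests were chosen with earlier results of these data known. Genes named were the members, tested genes among their 5 nearest on either side, and the 2 most alike by each measure. Alternatives were RLE factors, library totals, other filters, DESeq2 1.42.0, the replicate block, the groups compared alone, left-out libraries or passages, summed counts, ranked passages, another pseudocount and 10 neighbours; the fits without passages 1 and 5 and on passage means were added after seeing the data.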

Additional observations from a re-analysis of the deposited data

How the results depend on the processing

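Of 472 alternative values, 449 kept their direction and their side of the threshold or moved by less than the spread. The group differences of both genes against control and against urea did so under all 20 alternatives each: after urea from 3.25 to 3.39 for ENSCAFG00000003461 and from 1.37 to 1.59 for ENSCAFG00000032326, after NaCl from -2.09 to -1.71 and from -3.27 to -2.98, and with raffinose from -1.72 to -1.35 and from -3.71 to -3.34 (log2). NaCl against raffinose, also a description, ran from -0.52 to -0.28 for ENSCAFG00000003461 and from 0.31 to 0.45 for ENSCAFG00000032326. ENSCAFG00000003461 had too few reads to be kept in the fit of those 2 groups alone. With passage as a replicate block, the genes called over the table for NaCl against raffinose rose to 3595. The NaCl minus raffinose difference of the log2 ratio between the genes stayed between 0.45 and 0.69.

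The passage slope of ENSCAFG00000003461 was no longer called at -0.64 without passages 1 and 19, at -0.42 without passages 1 and 5, at -0.88 with summed counts and at -0.59 on passage means; leaving out single passages left it called. Over the whole table, genes called for passage numbered 858 without passages 1 and 19, 321 without passages 1 and 5, 8 with summed counts and from 1100 (without passage 1) to 2745 (without passage 16) when 1 passage was left out, against 2048; without passage 5 they numbered 1360. Solute by passage gave 2 genes with no filter, 2 with DESeq2 and from 0 to 1 (without passage 16) when 1 passage was left out. The correlation of the 2 genes after NaCl was 0.018 with library totals and ran from -0.095 to 0.26 without single passages; with raffinose it ran from -0.14 to 0.19. With library totals 33.3% of the neighbours of ENSCAFG00000003461 were called after NaCl, and with the block 100% of those of ENSCAFG00000032326; with library totals the median of all genes was -0.19 after NaCl, -0.25 with raffinose and -0.05 after urea. The causes were not tested. Fewer samples enter with summed counts, and what that alone does was not tested.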
